A study of Mus musculus with 3 samples.

Results

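The genes described were 7 transcription factors, grouped here as general regulators of sensory neurons. The POU genes were Pou4f1, Pou4f2 and Pou4f3, and the LIM-homeodomain genes were Isl1 and Isl2. The others were the paired-like homeobox gene Prrxl1 (also called Drgx) and the homeobox gene Tlx3. All 7 were chosen by name and were found among the 41388 genes of the deposited count tables. The libraries were made from mouse dorsal root ganglia, where the cell bodies of body-sensing neurons lie, taken from embryos at 14.5 days post coitum. Ganglia of spinal levels T11 to S1 were taken from C57BL/6 embryos carrying Ret-EGFP, a fluorescent reporter of the receptor gene Ret, and the series title describes the sorted cells as EGFP-labelled, Ret-positive neurons. A, the first library, held 100 ganglia from 3 male and 2 female embryos. B held 100 ganglia from 2 male and 4 female embryos, and D held 80 ganglia from 3 male and 1 female embryos. The genotype label gives the reporter as a transgene, whereas the series' design text gives it as a knock-in at Ret in heterozygotes, so it is not known whether every Ret allele was intact. No reporter-negative or other control population was analysed here, and the 3 libraries form 1 group. Each label names a pool of embryos, so p-values over libraries measure the spread between these pools, part of which may be technical.

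Sensory neurons of the ganglia arise from the neural crest, leave the cell cycle and switch on Pou4f1 (Brn3a) and Isl1, which in the mouse act together to shut down the early neurogenic program and to open the programs of the sensory subtypes. POU proteins bind DNA through a POU-specific domain and a homeodomain, and Islet proteins through a homeodomain, while their LIM domains bind LDB adaptor proteins. Pou4f2 and Pou4f3 are best known from retinal ganglion cells and hair cells, and Isl2 from spinal motor neurons. Prrxl1 and Tlx3 are known from nociceptive sensory neurons and from their target neurons in the dorsal horn of the spinal cord.

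The sequences below show how alike the paralogs are, because reads from identical stretches cannot be assigned to 1 of them. They are coding sequence from GENCODE M21 transcripts, 5′ to 3′, counted from the first base of the start codon, with the longest identical stretch in capitals and 18 bases on either side. Pou4f2 (chromosome 8) and Pou4f1 (chromosome 14) shared a stretch of 71 bases in the part that encodes the POU-specific domain, bases 841 to 911 in Pou4f2 and 871 to 941 in Pou4f1. The Islet genes (Isl2 on chromosome 9, Isl1 on chromosome 13) shared at most 23 bases, at the start of the homeodomain (bases 583 to 605 in Isl2, 553 to 575 in Isl1).
Pou4f2: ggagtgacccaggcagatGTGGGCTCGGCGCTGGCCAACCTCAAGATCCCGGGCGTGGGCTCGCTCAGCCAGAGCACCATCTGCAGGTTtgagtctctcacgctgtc
Pou4f1: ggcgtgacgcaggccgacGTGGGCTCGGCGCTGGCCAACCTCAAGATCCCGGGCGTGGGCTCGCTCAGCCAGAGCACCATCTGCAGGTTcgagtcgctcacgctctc
Isl2: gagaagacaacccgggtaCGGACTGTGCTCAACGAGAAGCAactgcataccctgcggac
Isl1: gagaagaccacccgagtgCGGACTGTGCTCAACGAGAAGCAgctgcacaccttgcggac

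Against Pou4f3 the longest shared stretch was 41 bases for Pou4f1 and 35 bases for Pou4f2. Of all windows of 50 bases in their annotated transcripts, Pou4f1 shared 0.498% and Pou4f2 shared 0.729% with any other gene, in each case with the other of the pair. The other 5 genes shared no such window with another gene. If reads covered Pou4f1 evenly, 68.6 of its reads in A, 78.7 in B and 133 in D would fall in windows shared with Pou4f2. This corresponds to between 13.9% and 18.2% of the Pou4f2 count, so a wrong assignment of these reads would leave most of that count. The read length is not given in the sources used here, and the window length is a choice.

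The tables summed to 20181558 counts (A), 20355302 counts (B) and 29061086 counts (D). Levels are given as TPM, a length-corrected share of the library's transcripts, that is counts divided by the deposited exon length of the gene and scaled to the library. All 7 regulators averaged at least 1 TPM, a level that 33.6% of all listed genes reached. Levels of at least 100 TPM were reached by 4 of the 7, against 3.96% of all genes. Median mean levels were 137 TPM over the 7 regulators and 10.8 TPM over the 13897 genes that averaged at least 1 TPM. In bulk RNA, fewer cells of a type and less RNA per cell cannot be told apart, so a level says nothing about the share of cells that express a gene.

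**Figure D1:**
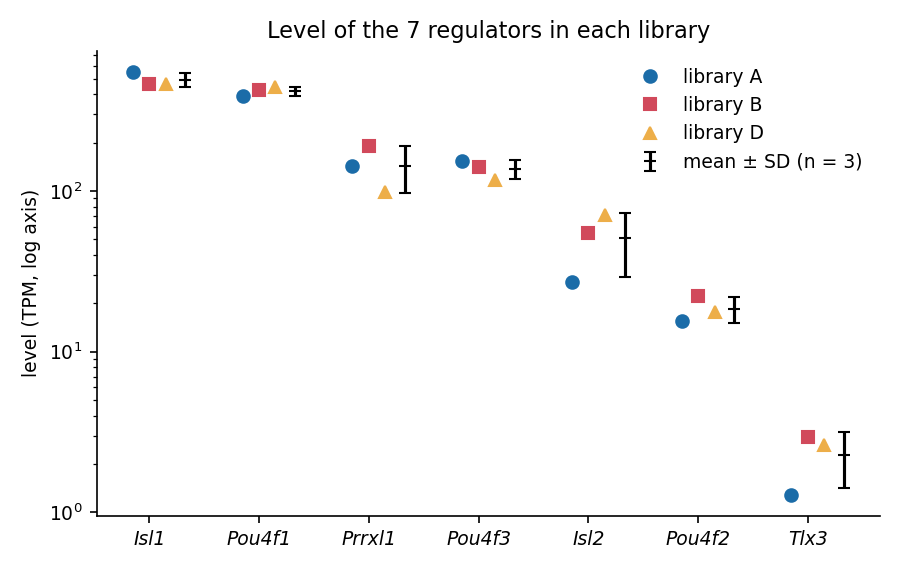
Level of each regulator in libraries A, B and D in TPM on a log axis, with the mean and SD over 3 libraries beside the points. Isl1 and Pou4f1 lie near 400 TPM or above in every library, Prrxl1 and Pou4f3 overlap, and Tlx3 lies lowest at 1.29 to 2.95 TPM.

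Pou4f1 (ENSMUSG00000048349, chr14:104461676-104467999, minus strand, coordinates of GRCm38.p2 as in the deposited files) was the main POU gene of the sorted cells. It stood at 389 TPM in A, 425 TPM in B and 441 TPM in D, a mean of 419 ± 26.6 TPM (SD, n = 3). These values came from 13791, 15827 and 26679 counts, and the gene ranked 420th of all genes by mean TPM. Its spread was the smallest of the 7 regulators on this scale, with a coefficient of variation of 6.36%.

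Pou4f3 (ENSMUSG00000024497, chr18:42394539-42397249, plus strand) was also well expressed. It reached 153 TPM in A, 141 TPM in B and 116 TPM in D, with a mean of 137 ± 18.7 TPM. Pou4f2 (ENSMUSG00000031688, chr8:78433010-78436645, minus strand) was the lowest of the 3 paralogs, at 15.6 TPM in A, 22.2 TPM in B and 17.7 TPM in D (mean 18.5 ± 3.38 TPM). The 3 genes did not overlap in any library. Of the summed Pou4f level, Pou4f1 held 72.9 ± 3.51%, Pou4f2 held 3.21 ± 0.504% and Pou4f3 held 23.9 ± 3.60%.

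Within libraries Pou4f1 exceeded Pou4f3 by 2.55-fold in A, 3.02-fold in B and 3.8-fold in D (log2 ratio 1.62 ± 0.29). Pou4f2 lay below Pou4f3 (log2 ratio -2.89 ± 0.35), and Pou4f3 was 7.44-fold above it on average. Against Pou4f1, the log2 ratio of Pou4f2 was -4.52 ± 0.22, so Pou4f1 was 22.9-fold above it. Each ratio had 1 direction in 3 of 3 libraries and exceeded its spread. The two-sided exact sign-flip permutation test gave p = 0.25 for each, the smallest value that 3 libraries allow, and 0.262 after Benjamini-Hochberg adjustment over the 21 pairs of the 7 genes, so no pair could pass 0.05. Without the correction for length the log2 ratio of Pou4f1 to Pou4f3 was 2.61, because Pou4f1 has 4672 exonic bases and Pou4f3 has 2360.

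The class IV POU genes carried nearly all POU-family RNA. Pou4f1, Pou4f2 and Pou4f3 summed to 574 ± 15.4 TPM, against 15.2 ± 1.00 TPM for the 11 other POU genes listed. Their share ran from 97.2% in A to 97.6% in D, with 97.4% in B. Of the other POU genes, 2 averaged at least 1 TPM, among them Pou6f1 (5.33 ± 1.08 TPM). Pou3f4 and Pou2f2 were lower, at 0.80 ± 0.474 TPM and 0.682 ± 0.188 TPM.

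The regulators that define the tissues for which Pou4f2 and Pou4f3 are best known were at or near 0. Atoh1, the hair cell and Merkel cell regulator, had 2 counts in A and none in B or D. Gfi1, which acts downstream of Pou4f3 in hair cells, had 1 count in B and none in A or D. Atoh7, the retinal ganglion cell regulator, had 2, 4 and 5 counts. Otof, a hair cell synapse gene, had at most 7 counts, and Myo7a, a myosin gene of hair cells and other tissues, stood at 2.84 ± 1.15 TPM. Excluding Pou4f2 itself, Myo7a was the only gene of this list that averaged 1 TPM.

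Isl1 (ENSMUSG00000042258, chr13:116298281-116309689, minus strand) was the highest of the 7 regulators in every library. It reached 551 TPM in A, 466 TPM in B and 465 TPM in D, a mean of 494 ± 49.5 TPM from 16544, 14699 and 23813 counts. Isl2 (ENSMUSG00000032318, chr9:55538672-55546180, plus strand) was lower and the most uneven, at 27.3 TPM in A, 55.1 TPM in B and 71.1 TPM in D (mean 51.2 ± 22.2 TPM). The highest Isl2 value was 2.61 times the lowest, and the counts were 454, 963 and 2019.

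Isl2 lay below Isl1 in 3 of 3 libraries, with a log2 ratio of -3.37 ± 0.85 (exact permutation p = 0.25). The size of this difference varied: Isl1 exceeded Isl2 by 20.2-fold in A, 8.46-fold in B and 6.53-fold in D. As a share of the Islet sum, Isl2 made up 4.72% in A, 10.6% in B and 13.3% in D. Without length correction the log2 ratio was -4.23. The antisense gene Gm17226 overlaps the span of Isl2 but none of its exons, and had 22, 16 and 38 counts.

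The Islet genes made up almost the whole LIM-homeodomain class. They summed to 545 ± 29.7 TPM, against 0.465 ± 0.225 TPM for 10 other LIM-homeodomain genes, none of which averaged 1 TPM. Among these, Lhx6 was highest at 0.229 ± 0.115 TPM, followed by Lhx1 (0.0714 ± 0.0187 TPM), Lmx1b (at most 6 counts) and Lhx5 (at most 2 counts). Lhx8, Lhx9 and Lmx1a had no counts in any library, where 0 counts allow up to 3 per library.

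Genes of other Islet-expressing neurons were scarce. Mnx1, which defines spinal motor neurons with Isl1 and Isl2, had no counts. Lhx3, another of the listed motor neuron markers, had 1 count in A, 1 in B and none in D. Chat, the acetylcholine synthesis gene, had 3, 1 and 2 counts. Slc5a7, the choline transporter gene, stood higher at 6.13 ± 2.73 TPM, and Slc18a3, the vesicular acetylcholine transporter gene, at 1.13 ± 0.772 TPM. The 6 motor neuron markers summed to between 4.76 and 11.4 TPM per library. Sympathetic neurons also express Isl1, and their 8 markers summed to between 2.43 and 9.36 TPM, led by Dbh (2.47 ± 1.35 TPM), which encodes the noradrenaline synthesis enzyme. Gata3 (0.701 ± 0.530 TPM) and Hand2 (0.335 ± 0.174 TPM) were lower.

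**Figure D2:**
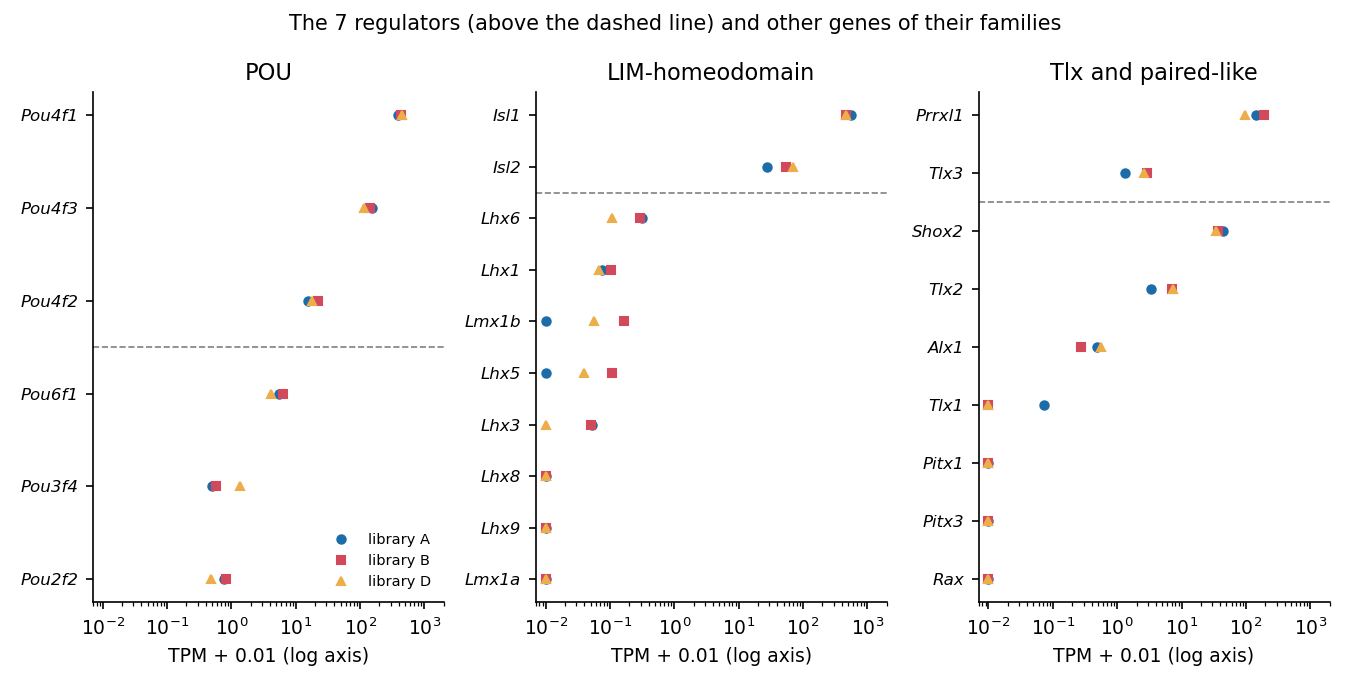
TPM plus 0.01 on a log axis for the 7 regulators, above the dashed line of each panel, and for the other genes of their families that are named in the text, with 1 point per library. The Pou4f and Islet genes lie above every other gene drawn in their panels, whereas Tlx3 lies below Shox2 and Tlx2. Tlx and paired-like genes are drawn in the same panel but are not a single family.

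Each of the 10 listed cofactors of LIM proteins averaged at least 1 TPM, and their median was 21.1 ± 5.72 TPM. Ldb2, an adaptor that joins LIM-homeodomain proteins into complexes, led with 81.5 ± 13.7 TPM, and its paralog Ldb1 stood at 16.5 ± 2.51 TPM. Ssbp3 (77.5 ± 7.64 TPM) and Ssbp2 (65.0 ± 4.83 TPM) encode proteins that stabilise LDB proteins. The LIM-only gene Lmo4, whose protein competes for LDB, stood at 25.6 ± 9.54 TPM.

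Prrxl1 (ENSMUSG00000041730, chr14:32599407-32649246, plus strand), required in the mouse for nociceptive afferents to reach the dorsal horn, was the third highest regulator by mean. It stood at 142 TPM in A, 190 TPM in B and 98.4 TPM in D (mean 144 ± 46.0 TPM), from 3808, 5348 and 4491 counts. Tlx3 (ENSMUSG00000040610, chr11:33200752-33203589, minus strand) was the lowest, at 1.29 TPM in A, 2.95 TPM in B and 2.62 TPM in D (mean 2.29 ± 0.878 TPM). It rested on 15, 36 and 52 counts, and exact Poisson 95% intervals, which cover counting error only, ran from 0.722 to 2.13 TPM in A, from 2.07 to 4.08 TPM in B and from 1.96 to 3.44 TPM in D. Of the genes that averaged at least 1 TPM, Tlx3 stood at the 83.5% mark counted from the top, and Prrxl1 at the 8.73% mark.

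Prrxl1 exceeded Tlx3 by 110-fold in A, 64.6-fold in B and 37.5-fold in D (log2 ratio 6.01 ± 0.78, 3 of 3 libraries, exact permutation p = 0.25). The mean log2 ratio was 7.21 without length correction. Markers listed for dorsal horn neurons and other spinal interneurons were at or near 0. Both genes are also known from dorsal horn neurons, though not from all the neurons that these markers label. Lbx1 and Gsx1, regulators of dorsal spinal neurons, had no counts in any library, and the 8 markers summed to between 0.233 and 1.00 TPM. Pax8 (0.252 ± 0.306 TPM) and Lhx1 led them, followed by Lmx1b and Gbx1 (0.0543 ± 0.0300 TPM).

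Among 18 other Tlx and paired-like genes, 3 averaged at least 1 TPM. Among them were Shox2 (38.3 ± 4.92 TPM), a regulator of touch neurons, and Tlx2 (5.93 ± 2.20 TPM). Alx1 stood at 0.428 ± 0.145 TPM, and Pitx1, Pitx3 and Rax had no counts. Prrxl1 and Tlx3 together held 74.5 ± 5.09% of the summed level of these 20 genes, nearly all of it from Prrxl1.

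The promoters of Isl1, the highest regulator, and Tlx3, the lowest, are shown because they were the only ones of those matched that held the core motif of homeodomain binding. They are the 250 bases before the RefSeq start site (GRCm38.p6, chr13:116309689-116309938 and chr11:33203589-33203838, both minus strand), 5′ to 3′, with each copy of that motif, TAAT or its reverse complement ATTA, in capitals.
Isl1: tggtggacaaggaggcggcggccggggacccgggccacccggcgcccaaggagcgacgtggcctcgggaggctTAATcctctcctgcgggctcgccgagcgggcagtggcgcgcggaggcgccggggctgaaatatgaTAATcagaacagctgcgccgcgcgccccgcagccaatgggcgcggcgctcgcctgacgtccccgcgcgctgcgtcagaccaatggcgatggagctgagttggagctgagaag
Tlx3: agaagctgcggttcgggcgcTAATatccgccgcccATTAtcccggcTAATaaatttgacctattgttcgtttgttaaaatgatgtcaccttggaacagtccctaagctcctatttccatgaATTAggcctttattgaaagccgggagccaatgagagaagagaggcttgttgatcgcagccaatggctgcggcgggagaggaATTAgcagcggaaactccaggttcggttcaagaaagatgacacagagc

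RefSeq promoters were found for 6 of the 7 regulators (all but Pou4f3). On both strands, TAAT occurred 5 times in the Tlx3 window and 2 times in that of Isl1, and not in those of Pou4f1, Pou4f2, Isl2 and Prrxl1. Of 32851 RefSeq promoter windows of this length, 54.9% held at least 1 TAAT and 5.54% held at least 5. The longer palindromes TAATTA (4.84% of all windows) and ATTAAT (4.39%) occurred in none of the 6 windows. CCAAT, searched on both strands, occurred in the windows of Isl1, Isl2 and Tlx3 and in 33.8% of all windows. GC content of the windows was 78.0% for Pou4f1, 71.2% for Isl1, 70.8% for Pou4f2, 66.8% for Isl2, 64.8% for Prrxl1 and 48.8% for Tlx3, against a median of 52.4% over all windows. The RefSeq start lay 2477 bases from the first deposited exon base for Isl2 and 520 bases from it for Prrxl1, so these windows describe 1 of several starts.

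The start of Tlx3 faces that of Gm12116, a long noncoding RNA gene on the opposite strand whose exons begin 466 bases away. Gm12116 had more counts than Tlx3 in every library: 390 against 15 in A, 305 against 36 in B and 324 against 52 in D. It averaged 13.8 ± 4.77 TPM and exceeded Tlx3 by 14.4-fold in A, 4.69-fold in B and 3.45-fold in D. The exons of the genes do not overlap, and Gm12116 was singled out after its values were seen.

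Of the 21 pairs among the 7 regulators, 20 had the same direction in all 3 libraries with a mean log2 ratio larger than its SD. The order by mean TPM was Isl1, Pou4f1, Prrxl1, Pou4f3, Isl2, Pou4f2 and Tlx3. Pou4f1 lay just below Isl1 (log2 ratio -0.24 ± 0.23, 3 of 3 libraries, exact permutation p = 0.25), and as counts without length correction the ratio turned to 0.0027. Pou4f3 and Prrxl1 did not differ beyond their spread (log2 ratio -0.03 ± 0.36, exact permutation p = 1), with Pou4f3 higher in A and D and Prrxl1 higher in B; without B the mean ratio turned to 0.17. The other neighbours were set apart by more than their spread, with log2 ratios of -1.52 ± 0.90 for Isl2 to Pou4f3, -1.38 ± 0.60 for Pou4f2 to Isl2 and -3.08 ± 0.45 for Tlx3 to Pou4f2.

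**Figure D3:**
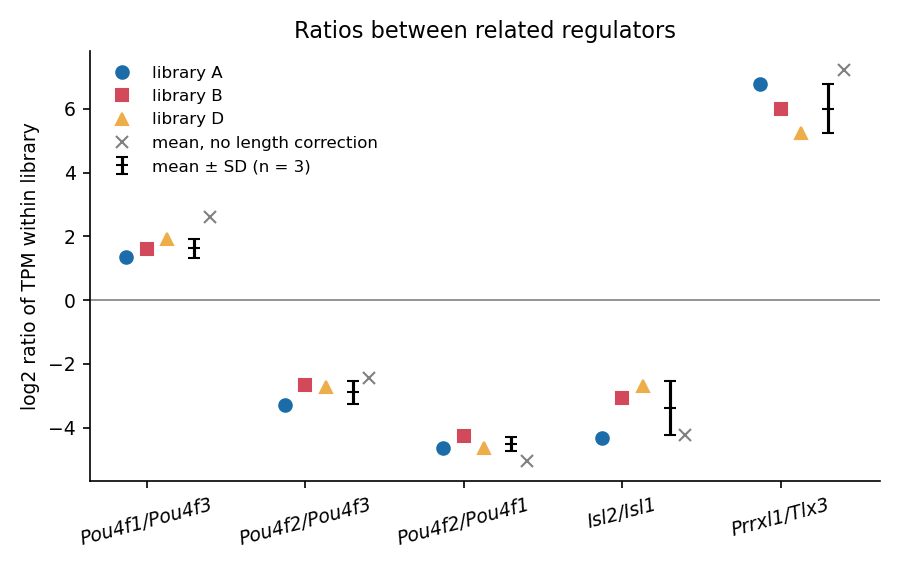
Log2 ratio of TPM within libraries A, B and D for 5 pairs, with mean and SD over 3 libraries. Crosses show the mean without length correction. The pairs are the Pou4f paralogs, the Islet paralogs, and Prrxl1 with Tlx3. Prrxl1 and Tlx3 are not paralogs, and their longest shared coding stretch was 9 bases. Every point of a pair lies on the same side of 0, and the spread is widest for Isl2/Isl1 (SD 0.85) and Prrxl1/Tlx3 (SD 0.78).

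Differences between libraries were tested against the spread of other genes of the same level. edgeR's goodness-of-fit test over 13530 genes called 24 genes after Benjamini-Hochberg adjustment, which is 0.177% of those tested, and 0 of the 7 regulators. Without A it called 7 genes and without B it called 2, again with no regulator. At an unadjusted p under 0.05, 827 genes (6.11%) and 1 of the 7, Isl2, passed. Its adjusted p by edgeR was 0.64, and the lowest adjusted p of a regulator ran from 0.637 to 0.997 over the edgeR alternatives. DESeq2's dispersion outliers numbered 4 and included no regulator. On the log2 scale of CPM with TMM scaling, Isl2 deviated from its mean over the libraries by -0.91 (A), 0.11 (B) and 0.80 (D). Tlx3 followed the same order on this scale, at -0.79, 0.32 and 0.47. By TPM it did not, since Tlx3 was higher in B (2.95 TPM, 36 counts) than in D (2.62 TPM, 52 counts). Pou4f3 was nearly level on the log2 scale (0.05 in A, -0.05 in B and 0.00 in D), while its TPM was lowest in D.

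The summed level of 8 Schwann and satellite glia markers had the same order as Isl2, at 253 TPM in A, 405 TPM in B and 470 TPM in D, most of it from Fabp7, a lipid-binding protein gene of glia (200, 313 and 418 TPM). Sox10, the glial regulator, did not follow that order, with 4.67 TPM in A, 11.1 TPM in B and 6.86 TPM in D. No glial marker was without counts in all libraries, and 6 of 8 averaged at least 1 TPM. Red cell markers (Hbb-bs, Hbb-bt, Hba-a1 and Alas2) summed to 72.0, 65.0 and 260 TPM, and the globin genes Hbb-bs and Hbb-bt were among the 24 calls, as was the mesenchyme marker Col1a1, high in B. The 6 mesenchyme markers, led by Col1a1, Col3a1, Dcn and Pdgfrb, summed to 12.0, 50.5 and 9.63 TPM. The part of these cells in the differences of Isl2 and Tlx3 was not tested.

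**Figure D4:**
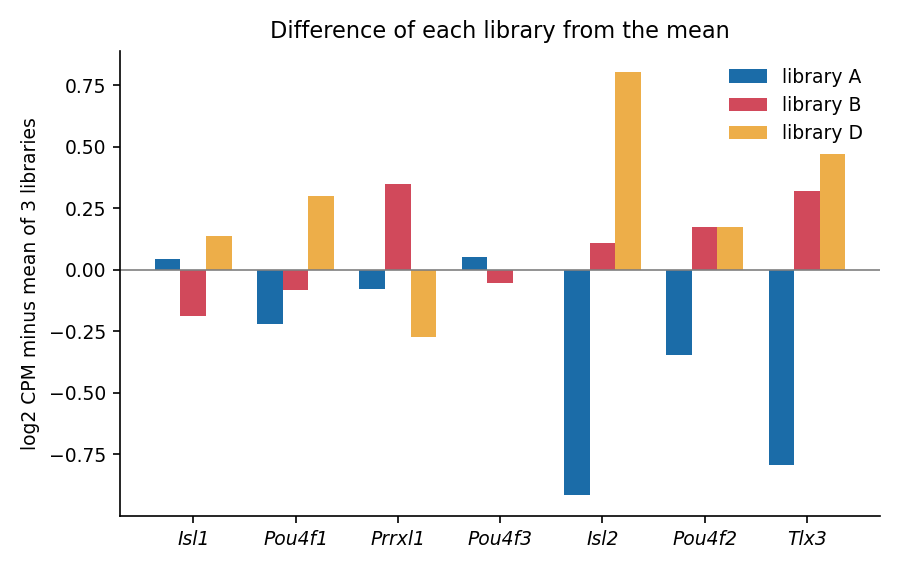
Log2 CPM (TMM scaling, prior count 2) of each regulator in libraries A, B and D minus its mean over the 3 libraries, as bars from 0. Isl2 and Tlx3 span the widest range, from -0.91 to 0.80 and from -0.79 to 0.47, and Pou4f3 the narrowest.

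The sensory identity of the sorted cells was checked with 10 marker genes, all above 1 TPM, with a list median of 1132 ± 62.1 TPM. Tubb3, a neuronal tubulin gene, was highest, ahead of Stmn2, Nefl and Uchl1, and Avil, the advillin gene that is largely restricted to sensory neurons, averaged 944 ± 260 TPM. The macrophage markers C1qa, Aif1, Csf1r and Cx3cr1 summed to at most 5.88 TPM per library. The endothelial markers Pecam1, Cdh5, Tek and Kdr summed to at most 4.43 TPM, and the cycling markers Cdk1, Top2a, Ccnb1 and Mki67 to at most 13.5 TPM.

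Genes that act in the same program were set beside the regulators. The proneural genes Neurog1 and Neurog2, which start sensory neurogenesis and are shut off as neurons mature, had no counts in any library. Of 13 neurogenic regulators, 7 averaged at least 1 TPM (list median 2.23 ± 0.563 TPM). Sox11, which promotes neuronal differentiation, stood far above the rest at 361 ± 8.91 TPM, followed by Neurod1 (13.7 ± 2.81 TPM) and Myt1 (10.5 ± 5.77 TPM). Hes6, which promotes differentiation by opposing Hes1, lay between them and Sox11, at 38.7, 61.3 and 21.4 TPM. Of 11 subtype regulators, 9 averaged at least 1 TPM, and the list median was 14.8 ± 3.47 TPM. Klf7, a regulator of nociceptor survival, led with 125 ± 10.3 TPM, ahead of Etv1 (49.3 ± 9.93 TPM), Cux2 (48.1 ± 8.22 TPM) and Maf (24.2 ± 12.3 TPM).

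Of 10 sensory genes known to depend on Pou4f1 or Isl1 in the mouse, all averaged at least 1 TPM and 8 reached 10 TPM. Of all listed genes, 33.6% averaged at least 1 TPM and 17.4% at least 10 TPM. These genes were listed because they are known sensory genes, so high levels in sorted sensory neurons were likely from the start. The list median was 150 ± 27.6 TPM, against a median of 10.8 TPM over all genes of at least 1 TPM. The neuropeptide gene Gal (1332 ± 219 TPM), Avil, the ATP receptor gene P2rx3 (359 ± 67.4 TPM) and the neuropeptide gene Calca (203 ± 57.6 TPM) were the highest, whereas Runx1 and Runx3, regulators of nociceptors and proprioceptors, stood lowest at 1.08 ± 0.156 TPM and 3.01 ± 0.596 TPM. Pou4f3 is itself in this list, and Runx1 and Runx3 are also in the list of subtype regulators. No manipulation of the regulators was part of the design, so dependence was not measured here.

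Likeness of pattern was measured as the Euclidean distance between centred log2 CPM over 3 libraries, among 8830 protein-coding genes of at least 5 TPM. The genes nearest to Isl1 were Plrg1 (distance 0.0023), Dnm3 (0.0047) and Ormdl2 (0.0053), and 269 genes lay within 0.1. The nearest to Tlx3 were Sppl3 (0.023), Gpr153 (0.030) and March9 (0.035), with 10 genes within 0.1. Among the 7 regulators, Isl1 and Pou4f3 were closest to each other (0.19), and Isl2 and Prrxl1 farthest apart (1.38). With 3 libraries such distances describe these libraries only.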

How the data were processed

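The 3 libraries were 1 group. RNA (10 ng) was amplified, per the labels' protocols, with a SMARTer Ultra Low Input kit and 12 PCR cycles, with no molecular identifiers described. For each Ensembl gene the authors deposited a count, its CPM and its RPKM. Per the submitters' processing notes, featureCounts 1.4.5 (Subread) and GRCm38.p2 were used. Not given in the sources used here were strand use, read length and the handling of multiply matching reads. The deposited CPM and RPKM equalled values computed from the counts (largest differences 4.7e-11 and 6.4e-12). Symbols came from GENCODE M21 (40254 of 41388 genes matched). TPM was computed from the counts and deposited lengths over all genes. Ratios were taken within libraries, for pairs with at least 10 counts of both genes in each, and compared with 0 by flipping signs over libraries (exact, two-sided). Variation was tested with edgeR 4.0.16 (R 4.3.3; TMM, filterByExpr, intercept-only fit, trended dispersion, deviance goodness-of-fit), since the quasi-likelihood test needs 2 groups, and this step was tested on simulated data. The recovery rate on simulated data is not reported here, so the lack of a call does not show that a gene was steady between libraries. DESeq2 1.42.0 was an alternative. Named genes were the 7 regulators and, per list, the 4 highest, those with no counts and those called; others named were chosen after their values were seen, and some listed genes are not reported here. The regulators and lists were chosen with earlier results of these data known. No pair of libraries agreed within counting error (variance 48.6 times that of counting error in the closest pair), so each was counted as 1 sample. Python 3.11.15, numpy 2.4.6, pandas 2.3.3, scipy 1.17.1 and matplotlib 3.10.9 were used.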

Additional observations from a re-analysis of the deposited data

How the results depend on the processing

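The ratios of the Pou4f pairs, the Islet pair and Prrxl1/Tlx3 kept their direction without length correction. They also kept it with coding or longest transcript length in GENCODE M21, and these lengths were chosen after the data were seen. Leaving out a library could not turn them, since each had 1 direction in every library. No ratio could pass 0.05 under any of them. With coding length, the log2 ratio was 2.29 for Pou4f1/Pou4f3, -4.27 for Isl2/Isl1 and 7.36 for Prrxl1/Tlx3. Of the 126 alternatives over all 21 pairs, 2 turned round. These were Pou4f1/Isl1 without length correction (0.0027) and Pou4f3/Prrxl1 without library B. Leaving out each library, Pou4f3/Prrxl1 ran from -0.16 to 0.17. The 126 include leaving out each library, which could not turn the 20 pairs with 1 direction in every library. By CPM, 2 regulators changed position, with Pou4f1 above Isl1. The count of regulators at the threshold was 7 at 0.5 TPM and 1 CPM, and 6 at 5 TPM, where Tlx3 dropped out. No regulator was called as varying under any of 8 alternatives. Against 24 genes called by edgeR, the number was 4 as DESeq2 dispersion outliers, and 2 to 27 with a library left out (7 without A, 2 without B, 27 without D). The cause was not tested. The planned coding length from a RefSeq protein table was not run, since no such table was used here. No paired analysis was possible because there is 1 group. Tlx3, with 15 to 52 counts, is the regulator whose values depth limits most.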

Other observations

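Tlx2, the paralog of Tlx3 better known from the enteric nervous system, was higher than Tlx3 in all 3 libraries. Tlx3 had 15, 36 and 52 counts against 39, 85 and 144 for Tlx2, and Tlx2 stood at 3.40 TPM in A, 7.05 TPM in B and 7.35 TPM in D. The log2 ratio of Tlx3 to Tlx2 was -1.38 ± 0.12 (SD, n = 3, exact permutation p = 0.25), and -1.36 without length correction. The pair was chosen after its values were seen. Tlx1 had 1 count in A and none in B or D.

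Of the listed genes within 100 kb of each regulator, those averaging at least 1 TPM were 1 of 1 for Pou4f1, 3 of 3 for Pou4f2, 2 of 3 for Pou4f3, 4 of 4 for Isl2, 1 of 3 for Prrxl1 and 4 of 7 for Tlx3. Isl1 had no listed gene in that range. Over all listed genes, 33.6% averaged at least 1 TPM. The neighbours included pseudogenes and small RNA genes besides protein-coding genes, and no enrichment was tested. Rnf219, whose gene lies 9535 bases upstream of Pou4f1 on the same strand, stood at 56.1 TPM. Ranbp17, 8206 bases upstream of Tlx3 on the same strand, averaged 2.31 TPM.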
